A study of Rattus norvegicus with 2 samples.

Results

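The genes described here are 10 components of glucocorticoid signalling: the receptors Nr3c1 and Nr3c2, the enzyme Hsd11b1, and the target genes Fkbp5, Tsc22d3, Sgk1, Dusp1, Zbtb16, Klf9 and Cebpd. They were taken by name, under a rule that uses no measured value but was set with earlier results of these data known, from the spots of a rat whole-genome Agilent array that were not control spots and whose RefSeq accession belonged to one of these genes. All 10 genes were found, among 8898 genes that could be named, on 18 of 41009 probes and 27 of 43379 spots, and 0 of the 27 spots carried an outlier or non-uniformity mark.

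Glucocorticoids are the adrenal hormones of the stress response, and corticosterone is the main one in the rat. The hormone binds the receptor in the cytoplasm, where chaperones of the Hsp90 family hold it, and the receptor then enters the nucleus and raises or lowers the transcription of its target genes. In blood the hormone is known to move leukocytes between the circulation and the tissues and to damp inflammatory gene expression.

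Whole blood RNA was compared between male rats, 7 weeks old, given lavender oil (LO, Lavandula angustifolia) at 5 mg/kg and male rats given 0 mg/kg. Both groups received the 10% ethanol diluent into the stomach once a day for 13 days and were dissected under ether on day 14, so that ethanol, handling and ether were shared by LO and control rats. The RNA of 6 rats was combined into 1 pool per group. On array 1 Cy5 marked LO and Cy3 marked control, and on array 2 the labels of these pools were swapped. Both arrays repeat a single pair of RNA pools, so that they count as 1 replicate with no spread between rats, and no test between LO and control was possible. An SD given below covers the 2 arrays or, where stated, the spots of a probe, and never rats. So few arrays bound how precise any value can be. The strain is given as Fischer, F334, in the study's methods and as Wistar in one label field, and the portal vein is named in the labels beside the heart as a source of blood.

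On both arrays 0 spots were saturated, and between 44.8% and 50.3% of spots were rated well above background in each channel. Markers of the blood cells were present, since the probes found for red cells, platelets, neutrophils and B cells were well above background in all 4 channels, as were 4 of 5 monocyte probes and 3 of 4 T cell probes. The LO/control ratio of array 1 ran opposite to that of array 2, with a Pearson r of -0.67 across 41009 probes, which are not independent replicates and share both RNA pools. Each ratio was therefore split into an LO part, which is the mean log2 ratio of both arrays, and a dye part, which is their difference divided by 2 and is positive when the signal followed Cy5. The dye part is also the value obtained if the sign of array 2 is turned. An SD over the 2 arrays comes from the same difference as the dye part. It therefore restates the size of the dye part and is no separate measure of the spread of the LO part.

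None of the 10 genes was selected as higher or lower in the LO pool. A probe was selected here when the authors' Feature Extraction p, which comes from an error model of a single spot and not from rats, was under 0.01 on both arrays with the same LO/control direction. The threshold is that of the methods, while asking for it on both arrays is a choice made here, so the selection is not the study's own gene list. It took 0 of the 18 probes as up-regulated, against 0.00975% of all probes, and 0 as down-regulated, against 0.0122%. At a p under 0.05 on both arrays the counts were again 0 and 0, against 0.0244% and 0.0195% of all probes. Towards the same dye 0 of the 18 probes passed at 0.01, where 2.64% of all probes did, and 3 passed at 0.05, where 6.58% did. These 3 were probes of Fkbp5, Tsc22d3 and Zbtb16. With limits of 1.5-fold and 0.75-fold on both arrays in place of p, 0 probes were higher in the LO pool (0.566% of all probes) and 0 lower (0.873%), while 4 passed towards the same dye (22.4%), the 3 above and a probe of Nr3c1, with the Fkbp5 probe taken against channels not well above background. On a single array, a p under 0.01 was reached by 0 of the 18 probes on array 1, against 5.95% of all, and by 2 on array 2, against 6.29%, which were probes of Nr3c2 and Fkbp5.

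Nr3c2, the mineralocorticoid receptor, was the only one of the 10 genes with no probe well above background in all 4 channels. Of the 18 probes, 14 were well above background in all 4 channels, against 37.5% of all probes, and they covered the other 9 genes. The remaining 4 were both probes of Nr3c2, 1 of 3 probes of Fkbp5 and 1 of 2 probes of Zbtb16. Signals of different probes are not compared with each other, since each probe binds with its own strength.

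**Figure D1:**
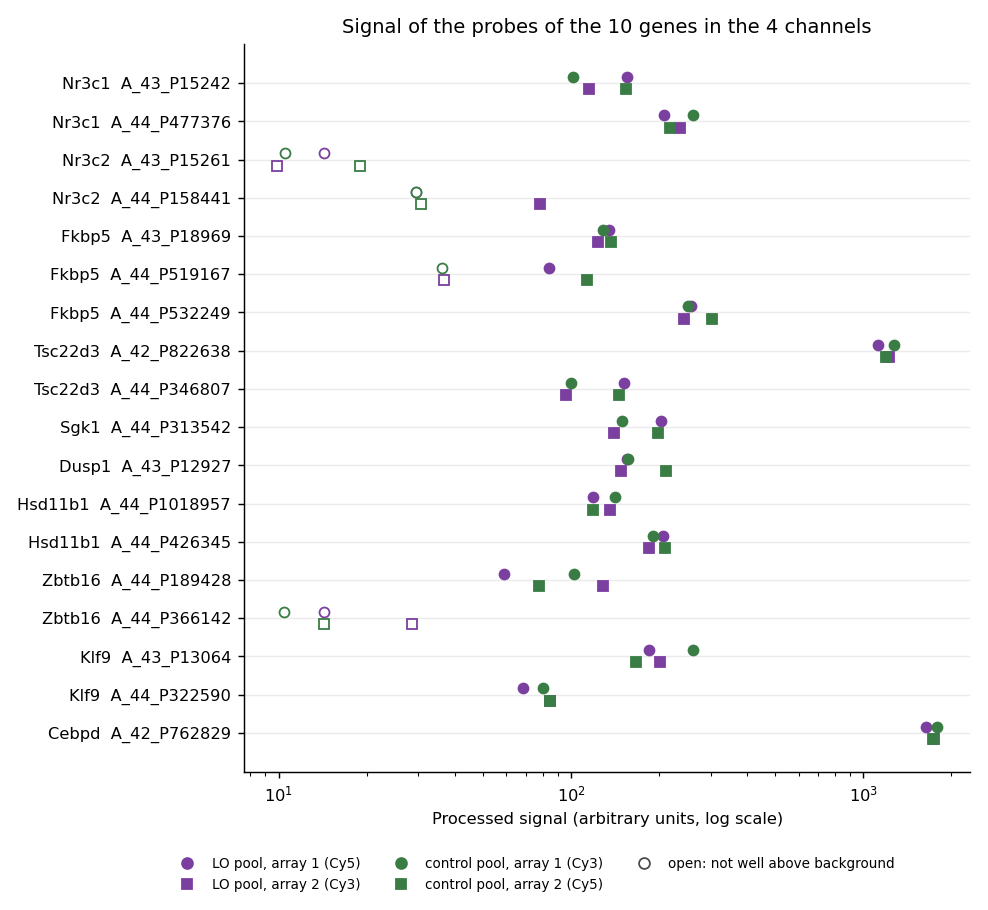
Processed signal (arbitrary units, log scale) of each of the 18 probes, with the LO pool in purple, the control pool in green, array 1 as circles, array 2 as squares and open symbols for channels not well above background. At Nr3c1 A_43_P15242, Tsc22d3 A_44_P346807 and Sgk1 the pair in Cy5 (purple circle and green square) lies above the pair in Cy3, while at Nr3c2 A_44_P158441 and Dusp1 a single channel of array 2 lies above the other three.

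Among the 14 probes measured in all 4 channels, the LO part lay between -0.26 and 0.10 on the log2 scale, that is between 0.834-fold and 1.07-fold. The median LO part was -0.05, a 0.965-fold level in the LO pool, while the median over the 15386 such probes of the array was -0.0026. The mean ratio was below 1 in 12 of the 14, against 51.3% of these probes. On array 1 alone it was below 1 in 8 of 14, against 49.1% of these probes, and on array 2 alone also in 8 of 14, against 51.9%. With normexp background correction and loess, 10 of 14 were below 1, against 49.6%, and the median was -0.014. With median-centred signals, 11 of 14 were below 1, against 73.7%, as this scaling moved the median of all such probes to -0.07. The LO part exceeded 1.5-fold either way in 0 of the 14 probes, against 0.123% of all such probes.

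The dye part was the larger of both parts in 12 of the 14 probes, against 75.6% of all such probes. It ranged from -0.77 for Zbtb16 to 0.60 for Tsc22d3, and it exceeded 1.5-fold in 2 of 14, against 6.49%. The size of these 2 dye parts depends on the processing. The normexp step added an offset of 50 to each channel, which pulls ratios towards 0 by construction, most at low signals. With normexp and loess the Zbtb16 log2 ratios on arrays 1 and 2 were -0.16 and 0.39, in place of -0.80 and 0.73. Those of Tsc22d3 were 0.36 and -0.21, in place of 0.61 and -0.60. Other probes did not all shrink, as Hsd11b1 A_44_P426345 had 0.16 in place of 0.11 on array 1. The median size of the dye part was 0.22, against 0.15 over the array, and that of the LO part was 0.065, against 0.061. The LO/control direction was the same on both arrays in 2 of the 14 probes, against 24.4%, and these were the Dusp1 probe and 1 probe of Klf9.

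**Figure D2:**
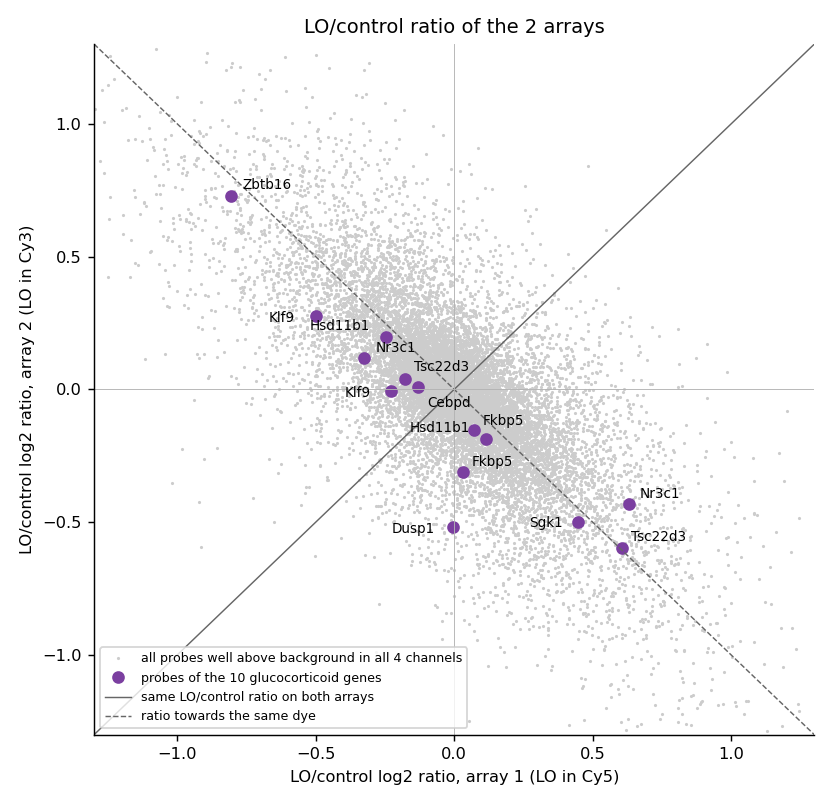
LO/control log2 ratio on array 1 (horizontal axis) and on array 2 (vertical axis) of the 14 probes of the 10 genes measured in all 4 channels (purple) and of all 15386 such probes (grey, 48 of them outside the axes). The purple points follow the dashed line of ratios towards the same dye, with Zbtb16 at its upper end and Tsc22d3 and Nr3c1 at its lower end, and Dusp1 lies below it.

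Nr3c1 encodes the glucocorticoid receptor itself. Its probe A_43_P15242 was printed on 10 spots of each array. On array 1 the LO pool gave signals from 138 to 178 over the 10 spots (median 155) and the control pool from 73.2 to 117 (median 106). On array 2 the LO pool gave 83.4 to 132 (median 119) and the control pool 141 to 165 (median 156). The LO pool was thus higher at 10 of 10 spots on array 1 and lower at 10 of 10 spots on array 2, with no overlap of the pools on either array. The ratio over the spots was 0.63 ± 0.24 on the log2 scale (SD, 10 spots) on array 1 and -0.43 ± 0.20 on array 2. Whichever pool was labelled with Cy5 was the brighter one.

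The LO part of this probe was 0.10 ± 0.12 over the 10 spots, above 0 at 8 spots and below 0 at 2, while the dye part was 0.53 ± 0.18 and above 0 at all 10. Spots of 1 probe share both RNA pools and are no replicates of the treatment. The spot-to-spot SD of the LO part was larger here than the median of 0.057 over the 120 repeated probes measured in all 4 channels. That of the dye part was also larger than their median of 0.060. How many of these probes separate the pools at every spot was not counted. On array 1 the control pool was well above background at 9 of the 10 spots, and the remaining spot had the highest dye part, 0.95. The p was under 0.01 at 3 of the 10 spots on array 1 and at 0 on array 2.

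**Figure D3:**
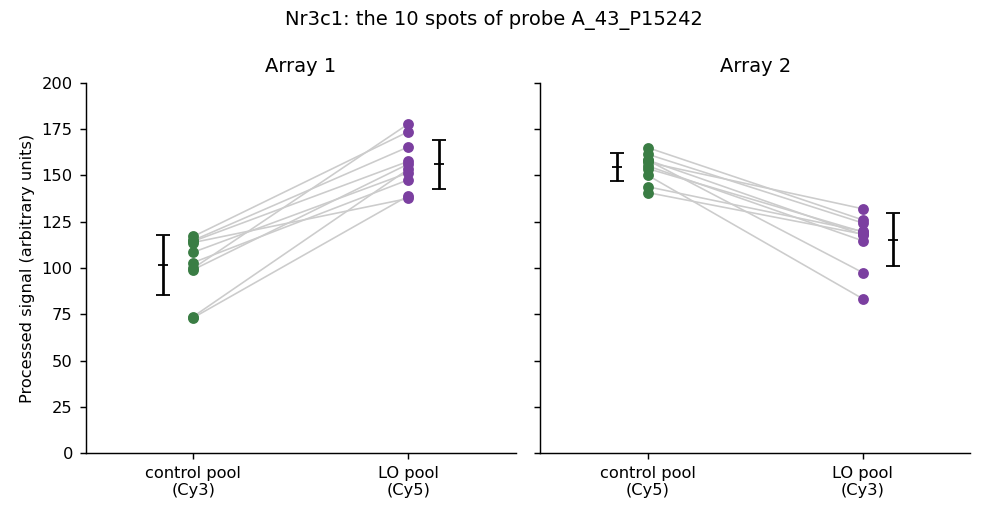
Processed signal (arbitrary units) of the control pool and the LO pool at each of the 10 spots of the Nr3c1 probe A_43_P15242, with lines joining the pools of a spot and black bars for the mean and SD over the spots. Every line rises from control to LO on array 1 and falls on array 2, as the Cy5 label moves from the LO pool to the control pool.

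The other Nr3c1 probe, A_44_P477376, gave 208 and 236 for the LO pool on arrays 1 and 2 and 261 and 217 for the control pool. Here the pool labelled with Cy3 was the brighter one on both arrays, the reverse of the first probe. The LO part was -0.10 (SD 0.31, 2 arrays). The mean of both probes was 0.999-fold in the LO pool.

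Nr3c2 binds corticosterone and aldosterone. At its probe A_43_P15261 the LO pool gave 14.2 and 9.85 and the control pool 10.5 and 19.0, none of them well above background, and no fold is given. At A_44_P158441 the LO pool gave 29.5 on array 1 and 78.1 on array 2, and the control pool 29.4 and 30.7. Only the LO pool on array 2 was well above background, with a p of 0.00979 on that array and 0.996 on array 1. Against the floor of the control channels the LO pool came to 0.904, under 1, and a fold is left out here too.

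Hsd11b1 regenerates active corticosterone from its inert keto form inside cells. Its probe A_44_P1018957 gave 119 and 136 for the LO pool and 141 and 119 for the control pool, and A_44_P426345 gave 206 and 184 for the LO pool and 190 and 210 for the control pool. The pools overlapped at both probes. The LO part was -0.03 (SD 0.31) at the first and -0.04 (SD 0.21) at the second, and the gene mean was 0.979-fold.

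Fkbp5 encodes a co-chaperone that binds Hsp90 in the receptor complex and lowers the affinity of the receptor for its hormone, and it is itself induced by the receptor. Its probe A_43_P18969 gave 135 and 123 for the LO pool and 128 and 137 for the control pool. Its probe A_44_P532249 gave 257 and 244 for the LO pool and 252 and 303 for the control pool. The LO parts of both were -0.04 (SD 0.16) and -0.14 (SD 0.24), a mean of 0.939-fold.

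At the third Fkbp5 probe, A_44_P519167, the LO pool gave 83.9 on array 1 and 36.8 on array 2, and the control pool 36.1 and 113, and on each array only the channel labelled with Cy5 was well above background. The LO pool was the brighter one on array 1 and the dimmer one on array 2, and since each ratio was taken against a dim channel, no fold is given. The p was 0.0102 on array 1, just outside the threshold, and 1.62e-04 on array 2.

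Tsc22d3, also named Gilz, encodes a leucine zipper protein that carries much of the anti-inflammatory action of glucocorticoids in leukocytes. Its probe A_42_P822638 gave 1126 and 1225 for the LO pool and 1275 and 1191 for the control pool, which overlapped, with an LO part of -0.07 (SD 0.16). Its probe A_44_P346807 gave 152 and 96.4 for the LO pool and 99.8 and 146 for the control pool. The second probe was 1.52-fold in the LO pool on array 1 and 0.661-fold on array 2, with a p of 0.0448 and 0.0470. The ratios cancelled to a mean of 1.003-fold, and the dye part of 0.60 was the highest among the 14 probes. The 2 probes of Tsc22d3 gave a mean of 0.978-fold.

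Sgk1 encodes a serum- and glucocorticoid-regulated kinase of ion transport and cell survival. Its probe gave 203 and 140 for the LO pool and 149 and 198 for the control pool, with Cy5 the brighter channel each time. The LO part was -0.03 (SD 0.67) and the dye part 0.47.

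Dusp1 encodes a phosphatase that switches off MAP kinases, and its probe had the lowest LO part of the 14. The LO pool gave 156 on array 1 and 148 on array 2, and the control pool gave 156 and 212. The pools were level on array 1, at a ratio of 0.997, and the LO pool was lower on array 2, at 0.698. The mean was 0.834-fold, -0.26 on the log2 scale with an SD of 0.36 over the 2 arrays, and 5.16% of the 15386 probes measured in all 4 channels had an LO part of larger size. The difference thus rests on array 2, where the p was 0.0429, while it was 0.987 on array 1.

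Zbtb16 (Plzf), a zinc finger repressor, had the largest dye part in size among the 14 probes measured in all 4 channels, in the Cy3 direction. Its probe A_44_P189428 gave 58.8 and 129 for the LO pool and 103 and 77.9 for the control pool. The LO pool was at 0.573-fold on array 1, with a p of 0.0324, and at 1.66-fold on array 2, with a p of 0.0239, and the mean was 0.973-fold. The dye part of -0.77 was exceeded in size by 2.62% of the probes measured in all 4 channels. At the other probe, A_44_P366142, all 4 signals were between 10.4 and 28.6, none well above background, and no fold is given.

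Klf9 is a Kruppel-like transcription factor, and both of its probes had a mean below 1. The probe A_43_P13064 gave 184 and 202 for the LO pool and 260.5 and 167 for the control pool, a mean of 0.925-fold with ratios of 0.707 and 1.21. The probe A_44_P322590 gave 68.4 and 84.4 for the LO pool and 80.1 and 84.8 for the control pool, a mean of 0.922-fold with ratios of 0.855 and 0.995. The first probe changed direction between the arrays, and the second was lower in the LO pool on both, by little on array 2. The SD over the arrays, which restates the dye part, was 0.55 and 0.16, beside LO parts of -0.11 and -0.12.

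Cebpd encodes a transcription factor of the acute phase response and of myeloid cells. Its probe gave 1638 and 1740 for the LO pool and 1792 and 1729 for the control pool, so that the pools overlapped. The LO part was -0.06 (SD 0.10), a mean of 0.959-fold, and the dye part was -0.07, the smallest of the 14 probes in size.

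**Figure D4:**
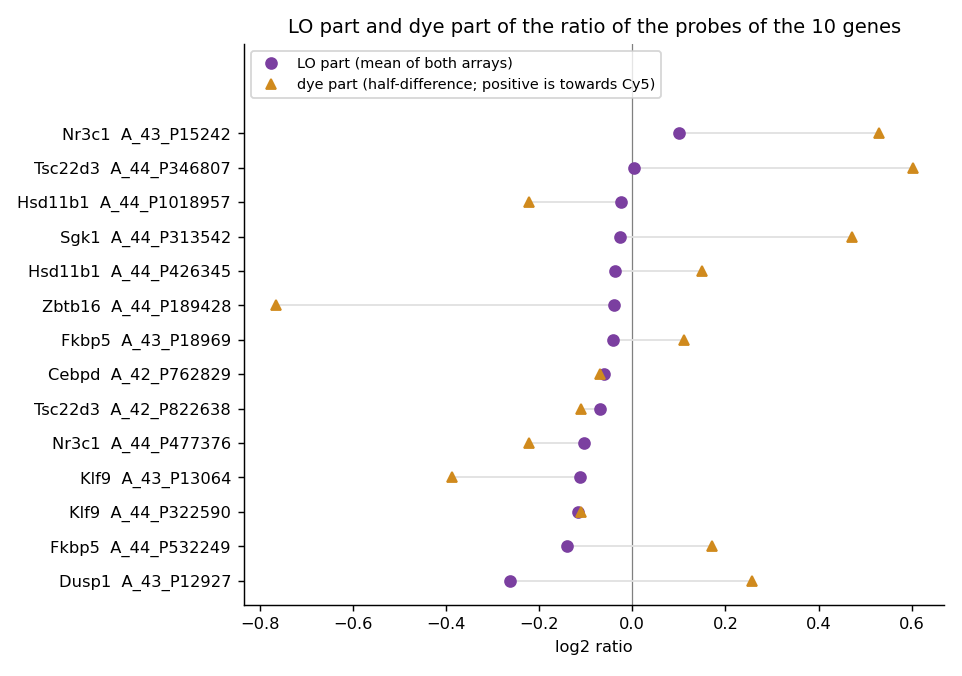
LO part (purple circles) and dye part (orange triangles) of the log2 LO/control ratio of the 14 probes measured in all 4 channels, ordered by the LO part. The circles lie between -0.26 (Dusp1) and 0.10 (Nr3c1), while the triangles reach from -0.77 (Zbtb16) to 0.60 (Tsc22d3), and probes of 1 gene can point to different dyes, as for Nr3c1, Tsc22d3 and Hsd11b1.

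Other genes of the pathway were described from 5 lists, which held 72 genes. Of these, 52 were found, on 66 probes, of which 34 were well above background in all 4 channels. On both arrays 0 of the 66 were selected as up-regulated and 0 as down-regulated, and 4 towards the same dye, where 2.64% of all probes were. These were 1 probe each of Hsp90aa1, Il6, Atf3 and Jun. Only the Atf3 probe was well above background in all 4 channels, while those of Hsp90aa1, Il6 and Jun were so in 2. The median LO part of the 34 probes was -0.04, with 26 below 0 and 8 above, where 51.3% of all such probes were below 0. The median ratio was -0.0042 on array 1 alone and -0.057 on array 2 alone.

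For the receptor complex and its coregulators, 9 probes were measured in all 4 channels, with a median of -0.03 and a range of -0.07 to 0.10. Ncoa2, a coactivator of nuclear receptors, was among the 3 highest of all lists, at 1.08-fold, with ratios of 1.48 and 0.779 on the arrays. For the steroid axis and hormone supply, 7 of 13 probes were above background in no channel, and 2 were measured in all 4, those of Pomc and Cyp11a1. Cyp11a1, the enzyme that opens steroid synthesis from cholesterol, was 1.11-fold, with ratios of 1.09 and 1.14. The LO pool gave 83.4 and 266 and the control pool 76.8 and 234, so that the arrays differed more than the pools.

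Other induced targets had 13 probes measured in all 4 channels, 10 of them below 0, against 51.3% of all such probes, with a median of -0.04. Il1r2, the decoy receptor of interleukin signalling, was 1.08-fold with ratios of 0.870 and 1.35. The inflammatory genes that the receptor is known to repress had 4 such probes, with a median of -0.07 and a range of -0.15 to -0.02. On array 1 alone the median was 0.019 and on array 2 alone -0.094, so that its sign rests on array 2. The LO parts of all 4 probes lay within the range of the 10 genes.

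Immediate early genes, which respond within minutes to many stresses, had a median of -0.14 over 6 probes, the lowest of the 5 lists. On array 1 alone it was 0.025, the highest of the 5, and on array 2 alone -0.16, so that its sign and its place rest on array 2. The lowest probes of all lists were Fos, Atf3 and Junb. The Fos probe gave 96.2 and 80.5 for the LO pool and 88.3 and 166 for the control pool, a mean of 0.728-fold with ratios of 1.09 and 0.486. As for Dusp1, the lower mean of Fos rests on array 2. Atf3 had a mean of 0.852-fold with ratios of 1.65 and 0.439, and Junb had a mean of 0.869-fold with ratios of 0.822 and 0.919, in the same direction on both arrays.

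Blood cell markers moved by similar small amounts, and their part in the values above was not tested. In whole blood, fewer cells of a type and less RNA per cell cannot be told apart. The median LO part was 0.11 over 4 neutrophil probes, 0.11 over 3 T cell probes, 0.10 for the single B cell probe, 0.02 over 4 platelet probes, -0.07 over 4 red cell probes and -0.12 over 4 monocyte probes. All 4 neutrophil probes were above 0 and all 4 monocyte probes below. The direction was the same on both arrays in 2 of the 4 neutrophil probes and 1 of the 4 monocyte probes. It was also the same in 2 of the 3 T cell probes and in the B cell probe, but in 0 of the red cell and platelet probes. Over all probes measured in all 4 channels the share was 24.4%. The summed signal of the 4 monocyte probes was 2906 and 3491 for the LO pool on arrays 1 and 2 and 3441 and 3497 for the control pool. That of the 4 neutrophil probes was 31897 and 32555 for the LO pool and 31336 and 29784 for the control pool. These sums are carried by the brightest probes, and the monocyte sums of the pools overlapped. The pools also overlapped at the neutrophil probes of S100a9 and Mmp8 and at the monocyte probes of Cd14, Cd68 and Cx3cr1.

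**Figure D5:**
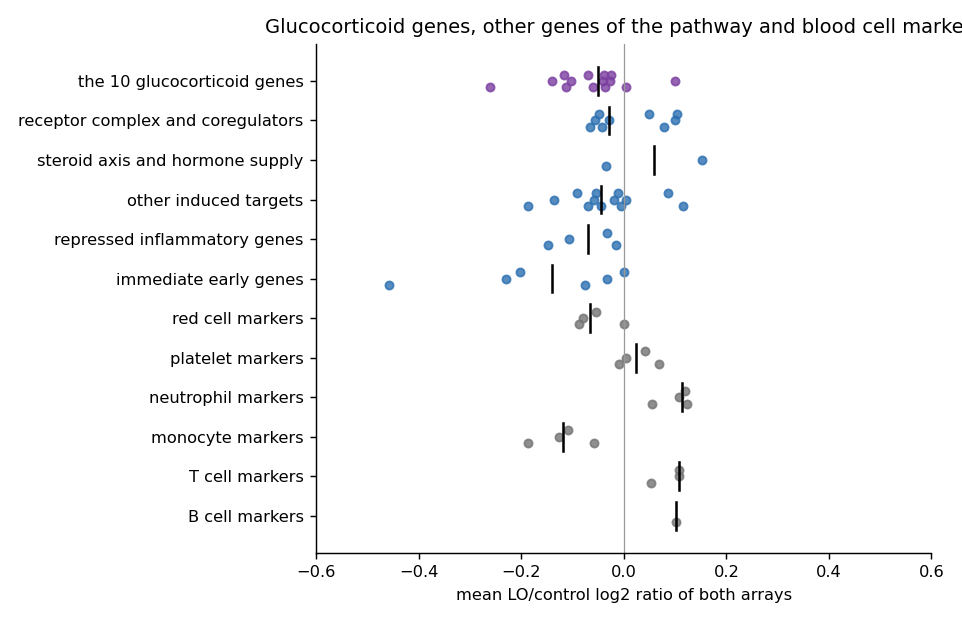
LO part (mean LO/control log2 ratio of both arrays) of each probe measured in all 4 channels, for the 10 glucocorticoid genes (purple), the 5 lists of other genes of the pathway (blue) and the markers of 6 blood cell types (grey), with a black bar at the median of each list. All but the Fos probe lie between -0.26 and 0.15.

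The promoter table of RefSeq (GRCr8) held 11 windows for 6 of the 10 genes (Nr3c1, Fkbp5, Tsc22d3, Sgk1, Dusp1 and Klf9). In the 250 bases before each start, the hexamer AGAACA, the core of the glucocorticoid response element, was found on either strand in 0 of the 11 windows and in 17.5% of all 33469 windows. Sites outside these 250 bases were not searched, and 11 windows of 6 genes are too few to show a lack of the site.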

How the data were processed

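Whole blood RNA, pooled from 6 rats per group, was hybridised on 2 Agilent arrays as a dye swap. The authors extracted the data with Agilent Feature Extraction 11.0.1.1. The deposited scanner output holds raw, background-subtracted and LOWESS-normalized signal intensities, a log10 ratio (Cy5 over Cy3) and its error, an error-model p-value and quality marks coded 0 or 1. The authors' value table, deposited with no scale stated, equalled the log10 ratio of the processed signals within 0.0001 for all 43379 spots on each array. The software's own log ratio had been set to 0 in 6392 and 5726 spots, where the 2 sources differ. This was so for 2 of the 18 probes on array 1 (1 each of Nr3c2 and Zbtb16) and 0 on array 2.

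Ratios were expressed as log2 of LO over control. Control spots and 338 marked spots were left out, ratios and signals were averaged and the median p was taken over the spots of a probe, and a repeated probe counted as well above background when most of its spots were. A gene mean is over its probes measured in all 4 channels. Where a pool was dim on both arrays, the limit of the fold was taken from processed signals after Aquantile normalization, where the dim pool took at least the smallest signal that passed as well above background. Genes were named by RefSeq accession, symbol or synonym from a GRCr8 table (10767 of 41009 probes). The array design is tied to rn4, so no coordinates are given. Probes known only by other identifiers stay unnamed here.

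All 10 genes and all their probes are named. Of the other lists, the probes selected towards either pool or dye and the 3 highest and 3 lowest LO parts are named. Pomc, S100a9, Mmp8, Cd14, Cd68 and Cx3cr1 fall outside this rule and were named after their values were seen. The 10 genes and the lists were chosen with earlier results of these data known. Simulated data were used to test the selection of probes. Python 3.11.15 (numpy 2.4.6, pandas 2.3.3, matplotlib 3.10.9) was used, with limma 3.58.1 in R 4.3.3. Alternatives covered the threshold, fold limits of 1.5 and 0.75, dim and marked spots, single spots, each array alone, the value table, median centring and normexp (offset 50) with loess.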

Additional observations from a re-analysis of the deposited data

How the results depend on the processing

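The counts of 0 probes up-regulated and 0 down-regulated among the 18 were the same at a p threshold of 0.05. They were also the same with fold limits in place of p and with each spot counted by itself. At a Benjamini-Hochberg adjusted p under 0.05 they stayed 0. An adjusted p is never below the p itself, so the 0 at a p under 0.05 had fixed this. At a p threshold of 0.001, with dim probes left out and with marked spots kept they stayed 0 too, but this was fixed in advance. A stricter rule cannot add to a count of 0, and 0 of the 27 spots carried a mark. With 1 array alone the counts were 0 to 1 up and 0 to 1 down, the 1 of each being the Nr3c2 and Fkbp5 probes on array 2. Towards the same dye the count was 0, and it was 3 at a p under 0.05 and 4 with the fold limits, since both are looser. The median over the 18 probes was -0.05, and with the sign of array 2 turned it was 0.021. The gene means over all their probes stayed within the SD of the 2 arrays for all 10 genes with normexp and loess and with the value table, for 9 of 10 with median centring (not Nr3c2) and for 8 of 10 with the sign of array 2 turned (not Nr3c2 and Dusp1). With each probe by itself 13 of 15 did, the others being both dim probes of Nr3c2, whose mean of such probes is no measure of stability. The SD of the 2 arrays grows as the arrays disagree, so staying within it does not show that a mean was stable. As an example, Sgk1 went from -0.026 to 0.47 with the sign of array 2 turned and still lay within its SD of 0.67. Over all probes of a list, dim ones included, the median of the receptor complex was 0.05, and -0.061 to 0.061 with 1 array alone. That of the steroid axis was 0.14, then 0.0056 with normexp and loess and 0.038 to 0.081 with 1 array alone, and that of the T cell markers was 0.08, then 0.048 to 0.058. The cause was not tested. A probe not well above background has at most a limit, which leaves Nr3c2 without a fold. No paired analysis was possible because the arrays share both RNA pools and form 1 replicate.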
